A study of Mus musculus with 7 samples.

Results

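Expression of 9 transcription factor genes of the cochlear sensory epithelium, Sox2, Sox9, Sox10, Prox1, Gata3, Six2, Eya1, Pax2 and Tbx2, was followed across all 7 libraries of the series. The genes were chosen by name and found through their Ensembl identifiers, and all 9 were present among the 48709 genes quantified and among the 14907 that passed the filter on low counts. In the cochlea of newborn mice, hair cells are surrounded by supporting cells, which develop from the same prosensory progenitors. SOX2 marks those progenitors and stays on in supporting cells, PAX2 and EYA1 act in a network that builds the otic placode and the sensory patches, and GATA3, PROX1 and TBX2 take part in later steps of patterning and cell fate. Histone deacetylases remove acetyl groups from histones, and EZH2, the catalytic subunit of Polycomb repressive complex 2, methylates histone H3 at a lysine linked to silencing. Both kinds of enzyme act on genes of developmental regulators.

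Cochleae from mice at postnatal day 1 were cultured on filter membranes for 48 h in medium with EGF and FGF. The groups were 200 nM trichostatin A (TSA, a deacetylase inhibitor; 2 libraries), 10 µM GSK-343 (an EZH2 inhibitor; 3 libraries) and an equivalent amount of the DMSO vehicle (2 libraries). After treatment the organs were dissociated with trypsin, GFP-positive cells labelled as supporting cells were sorted by flow cytometry, and RNA was made into libraries with a kit intended for single cells or small inputs. The labels give neither strain, sex, the gene that drives GFP, the number of animals pooled nor whether libraries of a group came from separate cultures, and each p-value therefore speaks only of the spread among the samples at hand.

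The libraries held 2724381 and 2963228 expected counts in TSA, 3398893 to 4248336 in GSK-343, and 5974230 and 5124247 in DMSO libraries. All 26 supporting cell markers on the list used here were above 0 in every library, with summed levels of 9972 to 12480 CPM (counts scaled to the library's TMM-normalised size) in TSA, 24385 to 28458 CPM in GSK-343 and 19969 to 23263 CPM in DMSO libraries. In TPM, which divides by transcript length, the same sums were 13168 to 18558 in TSA, 33482 to 43098 in GSK-343 and 9410 to 12045 in DMSO libraries, so TSA lay below DMSO in CPM and above it in TPM, and below GSK-343 in both. S100a1, the highest of the 26 by mean TPM, alone stood at 1238 and 1260 CPM in TSA, 3527, 7046 and 7850 CPM in GSK-343, and 645 and 456 CPM in DMSO libraries. For GSK-343 over DMSO the median log2 fold change of the 26 was −0.36, with 8 called lower and 4 higher. The higher CPM sums in GSK-343 than in DMSO libraries thus do not stand for most of the markers. The treated and vehicle libraries were not quantified alike. RSEM's effective length, which reflects how the reads or fragments were sized, was shorter than the gene's length by 208.21 to 212.69 bases (median over genes) in the 5 treated libraries and by 49 bases in both DMSO libraries. In addition, nuclear protein-coding genes held 78.2% to 93.4% of the counts in the treated libraries and 62.5% and 63.4% in DMSO. Treatment and this difference in reads cannot be told apart in any comparison with DMSO, whereas TSA and GSK-343 libraries share their read layout. The comparison of TSA with GSK-343 is therefore described first.

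The promoters of 3 members are shown that had a sequence window and were called below. Six2 and Gata3 were lower under TSA than under GSK-343, and Prox1 fell with both inhibitors relative to DMSO. Sox10 was called in every comparison but had no window. Each sequence runs 5′ to 3′ on the gene's strand and covers 250 bases before and 50 bases from the transcription start, as given by RefSeq on GRCm38.p6. Capitals mark matches to a SOX core motif (ACAAT, or ATTGT on the other strand) or a GATA motif (AGATAA, or TTATCT on the other strand). The windows are chr17:85688205-85688504 on the minus strand for Six2, chr2:9878551-9878850 on the minus strand for Gata3, and chr1:190170778-190171077 on the minus strand for Prox1.
Six2: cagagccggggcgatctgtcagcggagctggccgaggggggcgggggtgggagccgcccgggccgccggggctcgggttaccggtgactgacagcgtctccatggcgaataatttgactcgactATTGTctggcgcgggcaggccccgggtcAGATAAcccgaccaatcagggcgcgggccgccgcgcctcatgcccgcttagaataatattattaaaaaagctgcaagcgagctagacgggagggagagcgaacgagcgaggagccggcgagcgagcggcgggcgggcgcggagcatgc
Gata3: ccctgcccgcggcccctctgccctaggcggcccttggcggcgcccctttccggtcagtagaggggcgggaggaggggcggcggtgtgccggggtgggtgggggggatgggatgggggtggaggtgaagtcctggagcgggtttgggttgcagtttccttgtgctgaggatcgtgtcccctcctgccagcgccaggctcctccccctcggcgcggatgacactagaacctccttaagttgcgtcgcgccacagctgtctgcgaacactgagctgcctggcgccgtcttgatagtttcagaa
Prox1: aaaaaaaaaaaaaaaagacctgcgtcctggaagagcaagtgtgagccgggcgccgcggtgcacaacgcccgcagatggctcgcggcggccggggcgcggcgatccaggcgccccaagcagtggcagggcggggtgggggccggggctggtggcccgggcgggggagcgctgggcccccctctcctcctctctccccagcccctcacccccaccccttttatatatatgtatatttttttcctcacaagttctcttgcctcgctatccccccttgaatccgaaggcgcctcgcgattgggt
The Six2 window held 37 CpG dinucleotides, more than 94.4% of 32851 promoters of this length, whose median was 7 (quartiles 3 and 20). The Gata3 window held 22 and the Prox1 window shown 25 CpG dinucleotides, at percentiles 76.9 and 81.6. The Gata3 window lies inside the gene's GENCODE span, whose 5′ end on the minus strand is at 9890034. Its values thus hold for an internal start, and the upstream end was not examined. Six2 had a SOX core match at position −126 and a GATA match at position −98, counted from its start, and the Gata3 and Prox1 windows matched neither motif. Over all promoters, 31.0% held the SOX core, 11.2% the GATA motif and 13.7% a T-box motif (AGGTGT, or ACACCT on the other strand), which none of these 3 windows held. RefSeq windows were also found for a second Prox1 start, for Sox2 and for 3 Pax2 starts. Sox9, Sox10, Eya1 and Tbx2 were matched to no window.

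In the plot of normalised expression by library, the members differ in how tightly their replicates sit. Gata3 was nearly the same in the 3 GSK-343 libraries (highest over lowest 1.03), and Sox2 varied by at most 1.13 within any group. Six2 varied 6.17-fold among the GSK-343 libraries, Sox10 varied 3.3-fold between the TSA libraries, and Pax2 varied 15.6-fold between the DMSO libraries.

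**Figure D1:**
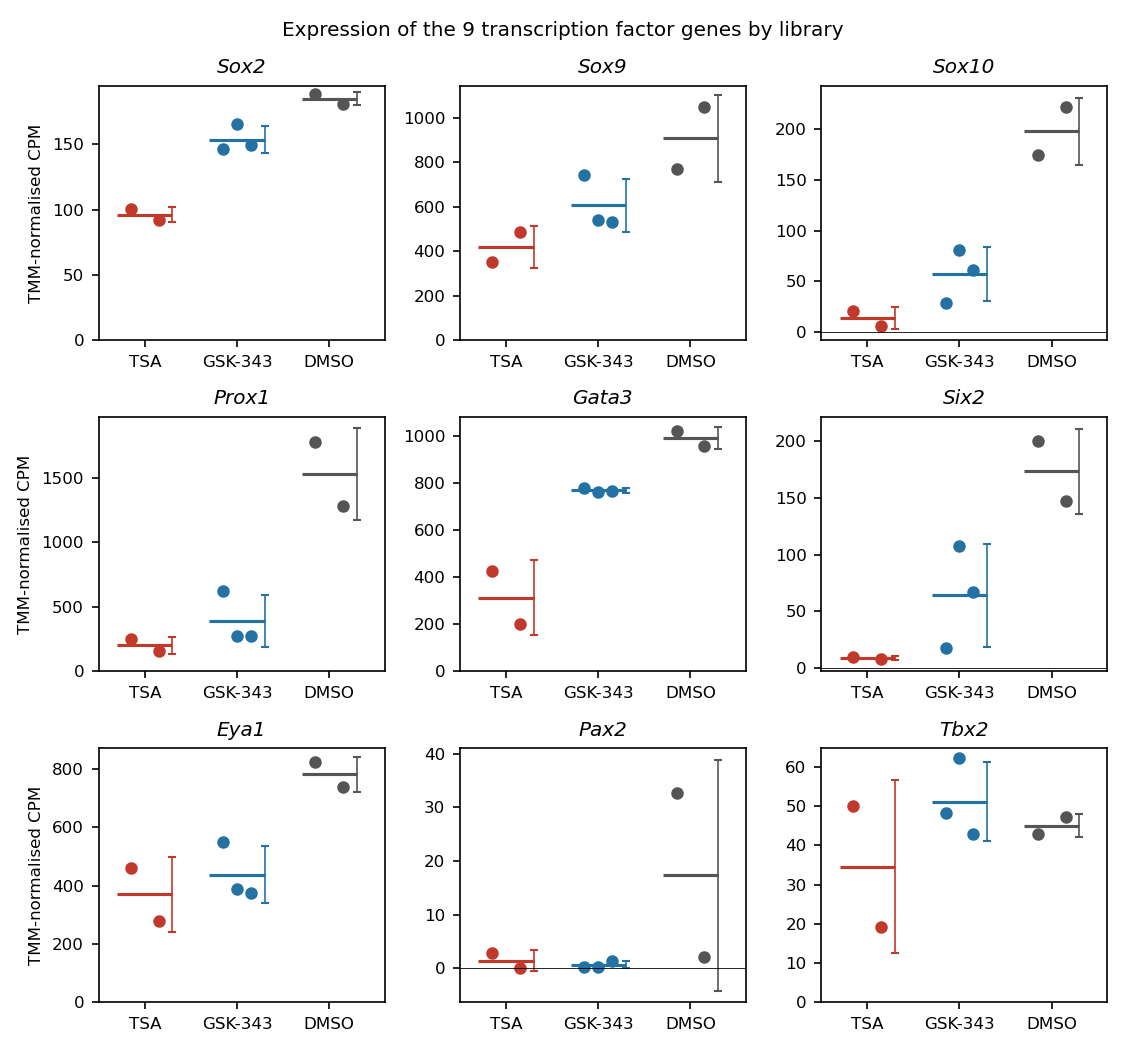
TMM-normalised CPM (vertical axis, linear) of the 9 factors in each library, with 1 point per library, a line at the group mean and a bar of 1 SD to its right, for TSA (n = 2), GSK-343 (n = 3) and DMSO (n = 2). For every factor except Pax2 and Tbx2 both TSA libraries lie below both DMSO libraries; Tbx2 libraries of the 3 groups overlap.

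The first comparison asks whether the deacetylase inhibitor and the EZH2 inhibitor left these factors at different levels. Six2, Sox10 and Gata3 were lower under TSA than under GSK-343, by 7.14, 4.1 and 2.45 times. These 3 of 9 members compare with 5.0% of all tested genes that were lower, 4.56% that were higher and 9.56% that were either at an adjusted p below 0.05, the threshold used throughout (edgeR's quasi-likelihood test, Benjamini-Hochberg adjusted). No member was higher with TSA, at an unadjusted p below 0.05 or in DESeq2's Wald test either, and 5 were lower at an unadjusted p below 0.05. The share of all tested genes at an unadjusted p is not given, so that count is not read as a result about the members. The median log2 fold change of the 9 was −0.67, and that of all tested genes was 0.00. With total count scaling, under which the median of all tested genes was 0.20, Six2 was the only member called, and limma on TPM called none. With the replicate block and a trend on GC content and length removed, none of the 3 was called (adjusted p = 0.0536 for Six2, 0.091 for Sox10 and 0.208 for Gata3).

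Six2, a homeodomain factor best known for keeping nephron progenitors in the kidney, stood at 10.1 and 7.92 CPM under TSA and at 17.6, 108 and 67.3 CPM under GSK-343. Both TSA libraries lay below every GSK-343 library, among which replicate 1 was far lower than the other two. The log2 fold change was −2.84 ± 0.64 (SE; adjusted p = 0.0212). The call was lost without TSA replicate 2 (−2.69, adjusted p = 0.0825) and under limma on TPM (−2.19, adjusted p = 0.124).

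Sox10, a SOXE factor of the otic epithelium and of neural crest glia, stood at 21.3 and 6.45 CPM under TSA and at 28.6, 80.8 and 61.5 CPM under GSK-343. The groups did not overlap, and the highest TSA library was close to the lowest GSK-343 library. The log2 fold change was −2.03 ± 0.54 (adjusted p = 0.0373). Without TSA replicate 2 it was −1.44 (adjusted p = 0.262), and it also missed the threshold without GSK-343 replicate 2 (adjusted p = 0.0918) or 3 (adjusted p = 0.0718).

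Because Sox10 also marks Schwann cells and satellite glia, their markers are given beside it. The summed level of 15 such markers, with Sox10 not among them, was 323 to 334 CPM in TSA libraries, 659 to 989 CPM in GSK-343 libraries and 425 to 482 CPM in DMSO libraries. None of the 15 was at 0 in every library, and of the 11 tested, 3 fell and none rose with TSA relative to GSK-343 (DESeq2 also called 3 lower and 0 higher, and 0 were higher at an unadjusted p below 0.05). Erbb3, a neuregulin receptor, stood at 145 and 139.9 CPM under TSA and at 611, 346 and 512 CPM under GSK-343 (log2 change −1.78, adjusted p = 0.013). S100b, a calcium-binding protein that supporting cells express too, stood at 39.5 and 7.33 CPM under TSA and at 115, 187 and 172 CPM under GSK-343. Erbb3 and S100b made up much of the summed levels, so the sums mainly reflect these genes. The median log2 fold change of the 11 for TSA over GSK-343 was −0.76. Relative to DMSO, 1 of the 11 rose and 2 fell with TSA, with a median log2 fold change of 0.32. With GSK-343, 2 rose and none fell (0 lower by DESeq2, 1 at an unadjusted p below 0.05), with a median of 0.71. Mbp rose with both inhibitors (log2 fold changes 2.82 and 3.23, adjusted p = 0.00556 and 0.00134). Erbb3 rose with GSK-343 (2.13, adjusted p = 0.000763), and Mia and S100b fell with TSA (−2.81 and −2.80). The part of glial RNA in the Sox10 difference was not tested. In such bulk samples, fewer cells of a type and less RNA per cell cannot be told apart.

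Gata3, a zinc finger factor needed for cochlear duct growth, stood at 425 and 201 CPM under TSA and at 779.7, 760.4 and 766 CPM under GSK-343. The TSA libraries lay well below the GSK-343 libraries and differed 2.11-fold between themselves. The log2 fold change was −1.30 ± 0.36 (adjusted p = 0.0424). The adjusted p was 0.36 without TSA replicate 2 and 0.0575 to 0.0892 without DMSO replicate 1 or 2 or GSK-343 replicate 2 or 3, and removal of a trend on GC content and length gave −0.66 (adjusted p = 0.234).

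The other members did not pass the test in this comparison. Sox2, the prosensory factor itself, stood at 100.3 and 92.1 CPM under TSA and at 146, 165 and 149 CPM under GSK-343, so the groups were separate and each was tight. Its log2 fold change was −0.67 ± 0.29 (adjusted p = 0.156). Sox9, a SOXE factor of the otic cup and of cartilage, stood at 354 and 485 CPM under TSA and at 744, 543 and 532 CPM under GSK-343 (log2 change −0.53 ± 0.33, adjusted p = 0.317). Prox1, a homeodomain factor of supporting cells, stood at 248 and 157 CPM under TSA and at 624, 272 and 277 CPM under GSK-343 (log2 change −0.95 ± 0.42, adjusted p = 0.168). For Sox9 and Prox1 the groups were separate as well, with GSK-343 replicate 1 above the other two. In all, the CPM ranges of 6 members were lower with TSA without overlap, which held for 22.8% of all tested genes.

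Eya1, a transcriptional coactivator with phosphatase activity, stood at 462 and 279 CPM under TSA and at 550.2, 387 and 375 CPM under GSK-343. The groups overlapped, and the log2 fold change was −0.24 ± 0.33 (adjusted p = 0.689). It was 0.10 under limma on TPM and 0.03 with total count scaling, so no direction is given. Tbx2, a T-box repressor that sets inner against outer hair cell fate, overlapped between the groups at 50.1 and 19.1 CPM under TSA and 48.2, 62.3 and 42.8 CPM under GSK-343 (log2 change −0.56 ± 0.43, adjusted p = 0.43). Pax2, a paired-box factor of the early otic vesicle, was close to absent, with 10 and 0 expected counts with TSA and 1, 1 and 6 with GSK-343.

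**Figure D2:**
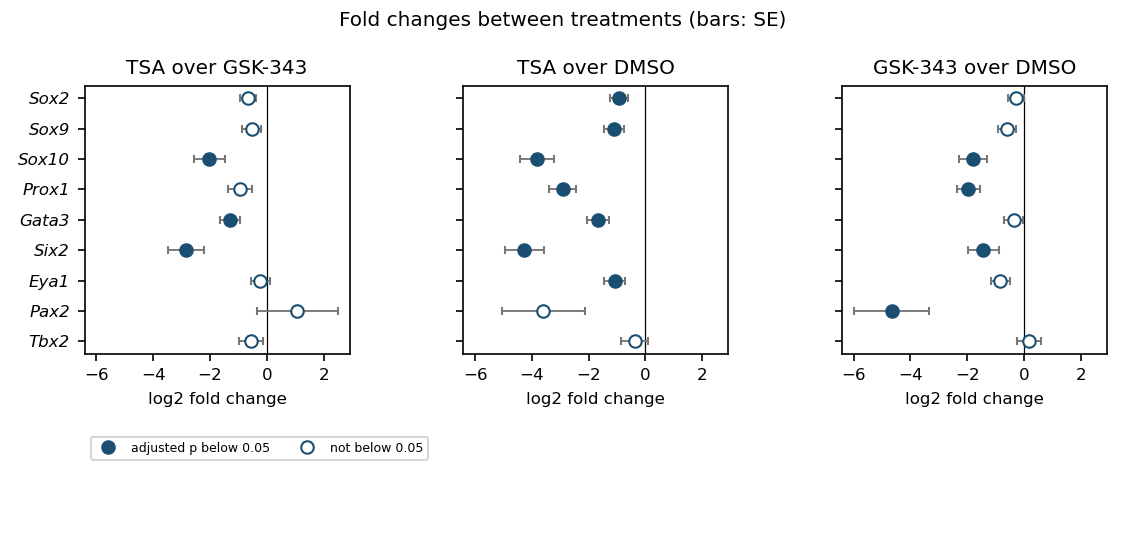
Log2 fold changes (horizontal axis) of the 9 factors for TSA over GSK-343, TSA over DMSO and GSK-343 over DMSO, with bars of 1 SE; filled points have an adjusted p below 0.05. The filled points lie left of 0 in all 3 panels, 3 in the first, 7 in the second and 4 in the third.

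Against DMSO, 7 of the 9 members fell with TSA: Six2, Sox10, Prox1, Gata3, Sox9, Eya1 and Sox2. Of all tested genes, 15.7% were called lower, 12.8% higher and 28.5% in either direction. The median log2 fold change of the members was −1.66 and that of all tested genes −0.05. The CPM of 7 members lay below DMSO without overlap, against 35.6% of all tested genes. With total count scaling, under which the median of all tested genes was 0.65, 3 members were called, namely Six2, Sox10 and Prox1.

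Six2 stood at 10.1 and 7.92 CPM under TSA and at 199.9 and 147 CPM in DMSO, a log2 fold change of −4.26 ± 0.70 (adjusted p = 0.00149). Sox10 stood at 21.3 and 6.45 CPM under TSA and at 174 and 221 CPM in DMSO (log2 change −3.83 ± 0.61, adjusted p = 0.00131). Prox1 stood at 248 and 157 CPM under TSA and at 1778 and 1277 CPM in DMSO (log2 change −2.91 ± 0.48, adjusted p = 0.00164). These 3 genes were several times lower in both TSA libraries than in either DMSO library, and their calls held with each library left out in turn. Gata3 stood at 425 and 201 CPM under TSA and at 1022 and 957 CPM in DMSO (log2 change −1.66 ± 0.39, adjusted p = 0.00913), and its call was lost without TSA replicate 2 (adjusted p = 0.0789) and, at the threshold, without DMSO replicate 1 (adjusted p = 0.05001).

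The 3 smaller calls did not hold in TPM. Sox9 stood at 354 and 485 CPM under TSA and at 771 and 1047 CPM in DMSO (log2 change −1.11 ± 0.36, adjusted p = 0.0347), but at 226 and 258 TPM under TSA and 213 and 258 TPM in DMSO. Sox2 stood at 100.3 and 92.1 CPM under TSA and at 188 and 181 CPM in DMSO (log2 change −0.94 ± 0.31, adjusted p = 0.0402), but at 136 and 104 TPM under TSA and 105 and 91 TPM in DMSO. For these 2 genes the groups are separate in CPM and overlap in TPM. There limma put the log2 difference at 0.04 for Sox9 and 0.28 for Sox2, and the median over all genes in that fit was 0.67. Both genes thus lay below that median, while neither was lower with TSA in TPM itself. Eya1 stood at 462 and 279 CPM under TSA and at 824 and 739 CPM in DMSO (log2 change −1.08 ± 0.37, adjusted p = 0.0449). In TPM it stood at 306 and 149 under TSA and at 446 and 393 in DMSO, where its length was 0.5 times that in the treated libraries, which raises the DMSO values, so its direction in TPM is not read as support. With a library left out, Sox9 was lost without any of the 2 TSA and 2 DMSO libraries (adjusted p of 0.0634 to 0.209), Sox2 without any library except GSK-343 replicate 1 (0.0545 to 0.266), and Eya1 without TSA replicate 2, GSK-343 replicate 2 or 3, or either DMSO library (0.0551 to 0.32).

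Tbx2 and Pax2 did not pass. Tbx2 stood at 50.1 and 19.1 CPM under TSA and at 42.9 and 47.1 CPM in DMSO (log2 change −0.38 ± 0.47, adjusted p = 0.575), and the difference was 0.60 under limma on TPM and 0.37 with total count scaling. The medians over all genes in those fits were 0.67 and 0.65. Pax2 had 10 and 0 expected counts with TSA and 145 and 8 in DMSO (log2 change −3.59 ± 1.47, adjusted p = 0.0843).

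With GSK-343, 4 of the 9 members fell relative to DMSO, namely Prox1, Sox10, Six2 and Pax2, and 21.3% of all tested genes were called lower (17.7% higher, 39.0% in either direction). The median log2 fold change of the members was −0.84 and that of all tested genes −0.04. Under limma on TPM no member was called, while 0 were higher and 5 lower at an unadjusted p below 0.05 in edgeR and 5 were lower in DESeq2. Shares of all tested genes at the unadjusted p or by DESeq2 are not given, so these counts have no background to be read against.

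Prox1 stood at 624, 272 and 277 CPM under GSK-343 and at 1778 and 1277 CPM in DMSO, a log2 fold change of −1.97 ± 0.41 (adjusted p = 0.00301). Every GSK-343 library was below both DMSO libraries. This call held with each library left out in turn, and was just missed under limma on TPM (−1.54, adjusted p = 0.0555). Sox10 stood at 28.6, 80.8 and 61.5 CPM under GSK-343 and at 174 and 221 CPM in DMSO (log2 change −1.79 ± 0.48, adjusted p = 0.0112; adjusted p = 0.0608 without DMSO replicate 2).

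Six2 stood at 17.6, 108 and 67.3 CPM under GSK-343 and at 199.9 and 147 CPM in DMSO, a log2 fold change of −1.43 ± 0.53 whose adjusted p of 0.04996 was at the threshold. The call was lost without DMSO replicate 1 (adjusted p = 0.213), DMSO replicate 2 (adjusted p = 0.0775) or GSK-343 replicate 3 (adjusted p = 0.0896). In TPM the groups overlapped, at 19.4, 114 and 64.3 TPM under GSK-343 against 121 and 80.4 TPM in DMSO. Pax2 had 1, 1 and 6 expected counts under GSK-343 against 145 and 8 in DMSO (log2 change −4.67 ± 1.33, adjusted p = 0.0152). That difference rested on DMSO replicate 1, without which it was −1.60 (adjusted p = 0.548).

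Eya1 stood at 550.2, 387 and 375 CPM under GSK-343 and at 824 and 739 CPM in DMSO, without overlap (log2 change −0.84 ± 0.33, adjusted p = 0.0598). Gata3 stood at 779.7, 760.4 and 766 CPM under GSK-343 and at 1022 and 957 CPM in DMSO (log2 change −0.36 ± 0.34, adjusted p = 0.422), and was called lower once a trend on GC content and length was removed (−1.27, adjusted p = 0.00909). Sox2 (log2 change −0.27 ± 0.28, adjusted p = 0.468) and Sox9 (−0.58 ± 0.32, adjusted p = 0.165) were lower than DMSO in mean CPM and higher in mean TPM. Sox2 stood at 154, 158 and 132 TPM under GSK-343 and 105 and 91 TPM in DMSO. Under limma on TPM the median log2 difference over all genes in that fit was 0.24. Tbx2 overlapped DMSO in CPM, and its log2 change was 0.18 ± 0.43 (adjusted p = 0.764). In all, 8 members were lower than DMSO in CPM without overlap, against 32.1% of all tested genes.

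Both comparisons with DMSO use the same 2 vehicle libraries, so they are not independent of each other.

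Several members have more than 1 annotated transcript, and the authors' tables give each gene a length weighted by the estimated abundance of its transcripts. Gata3, with 6 transcripts, had a length of 3072.9 and 3168.8 bases under TSA, 3111.1, 3163.3 and 3153.3 bases under GSK-343, and 1464.2 and 1516.3 bases in DMSO. Eya1, with 9 transcripts, had 3979.4 and 4125.8 bases under TSA, 4026.8, 4069 and 4132.3 bases under GSK-343, and 2126.4 and 1943.3 bases in DMSO. The TSA and GSK-343 libraries thus gave like lengths, and the DMSO libraries gave lengths 0.476 times as long for Gata3 and 0.5 times as long for Eya1. Prox1 and Six2 differed less, at 0.826 and 0.948 times.

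A ratio of 0.6 or less was found for 1021 of 10787 tested genes with more than 1 transcript (9.47%), whose median ratio was 0.949. Because TPM divides by length, this difference raises Gata3 and Eya1 in DMSO when levels are given in TPM. Sox2, Sox9, Sox10 and Tbx2 have 1 transcript each and a constant length. The cause of the shorter lengths in DMSO was not tested.

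**Figure D3:**
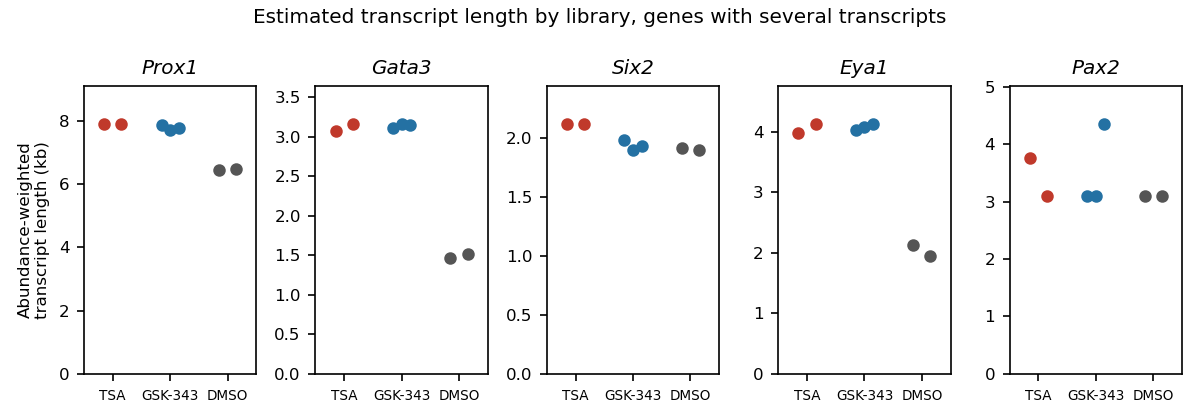
Abundance-weighted transcript length (vertical axis, kb) by library for the 5 factors with several transcripts, with 1 point per library of TSA, GSK-343 and DMSO. Gata3 and Eya1 lie near 3.1 and 4.0 kb in all treated libraries and at 1.5 kb and 2.1 kb or less in DMSO.

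Levels were compared between genes on the TPM scale, which divides by the length estimated in each library. With TSA, Gata3 (256 ± 162 TPM; SD, n = 2), Sox9 (242 ± 22.9 TPM) and Eya1 (228 ± 111 TPM) were highest, and their ranges overlapped. Sox2 (119.8 ± 22.4 TPM) and Prox1 (61.6 ± 27.2 TPM) followed, each separate from its neighbours, and Tbx2, Sox10 and Six2 overlapped at means of 24.2, 13.3 and 10.9 TPM. With GSK-343, Gata3 (469 ± 50.3 TPM; n = 3) was above all other members, and the order Sox9 (279 TPM), Eya1 (205 TPM), Sox2 (148 TPM), Prox1 (94.5 TPM), Six2 (65.9 TPM), Sox10 (39.9 TPM) and Tbx2 (26.8 TPM) had overlapping ranges at every step.

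In DMSO the order was Gata3 (735 ± 111 TPM; n = 2), Eya1 (419.6 ± 38.0 TPM), Prox1 (256 ± 79.5 TPM), Sox9 (235 ± 32.1 TPM), Six2 (101 ± 28.4 TPM), Sox2 (98.2 ± 10.2 TPM), Sox10 (78.6 ± 6.87 TPM) and Tbx2 (13.4 ± 0.163 TPM). Prox1 overlapped Sox9 there, and Six2 overlapped Sox2. The places of Gata3 and Eya1 rest on DMSO lengths 0.476 and 0.5 times the treated ones, so the order of Eya1 relative to Prox1 and Sox9 is not settled. Pax2 was lowest in all 3 groups, with 0 to 1.97 TPM under TSA, 0.15 to 0.55 TPM under GSK-343 and 0.69 to 12.0 TPM in DMSO. Summed over the 9 factors, levels were 1192 and 720.5 TPM under TSA, 1559, 1304 and 1125 TPM under GSK-343, and 2111 and 1777 TPM in DMSO. The TSA and GSK-343 sums overlapped in TPM, and the DMSO sums include Gata3 and Eya1 at their shorter lengths, so no order is read from them. In CPM the sums were 1674 and 1248 under TSA, 2938, 2378 and 2272 under GSK-343, and 5033 and 4618 in DMSO, with no overlap between the groups.

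**Figure D4:**
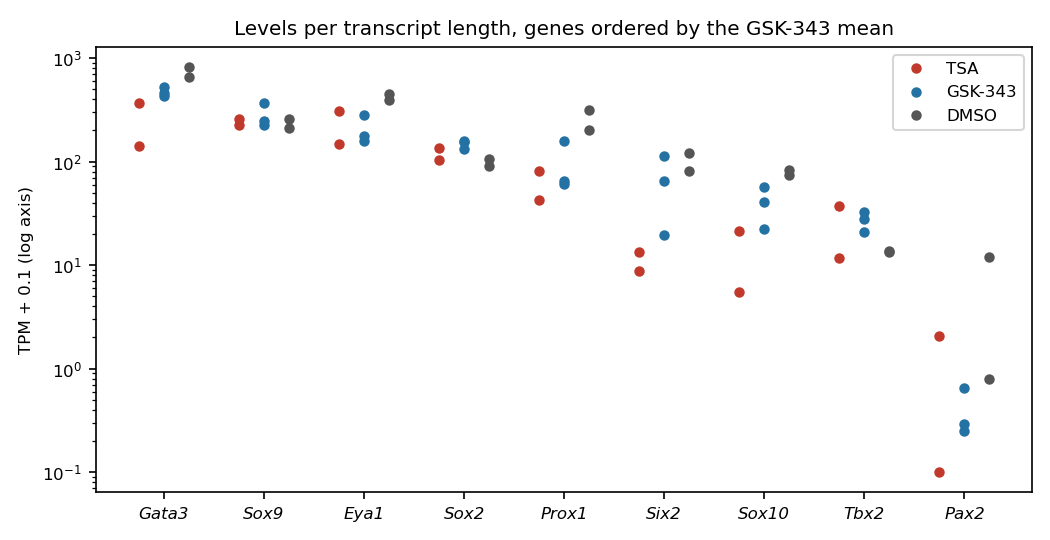
TPM + 0.1 (vertical axis, log scale) of the 9 factors in each library, with genes ordered by the GSK-343 mean and points coloured by TSA, GSK-343 and DMSO. Gata3 is at the high end and Pax2 at the low end, and Sox2 lies higher in the GSK-343 libraries (132 to 158 TPM) than in the DMSO libraries (91 and 105 TPM).

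Relatives of the members were read from lists of the same families. Of 16 other SOX genes, 8 were tested, and 2 of them fell when TSA was set against GSK-343: Sox13, a SOXD gene, at 62.7 and 29.3 CPM under TSA and 96.9, 186 and 171 CPM under GSK-343 (log2 change −1.72, adjusted p = 0.027), and Sox21, a SOXB2 gene that counteracts SOX2, at 226 and 268 CPM under TSA and 808, 513 and 480 CPM under GSK-343 (log2 change −1.28, adjusted p = 0.0362). None of the 8 rose (1 did at an unadjusted p below 0.05, and DESeq2 called 0), and the median log2 fold change was −0.40. With total count scaling or limma on TPM, neither of these calls stood. Against DMSO the list split: Sox13, Sox4 and Sox6 fell and Sox12 rose with TSA, while Sox4, Sox5 and Sox11 fell and Sox12 and Sox21 rose with GSK-343. With total count scaling, those calls were 1 lower and 1 higher for TSA, and 0 lower and 2 higher for GSK-343.

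Of 13 relatives of Pax2, Six2 and Eya1, counting Dach genes of the same network, 8 were tested. None passed in the comparison of TSA with GSK-343, at an unadjusted p below 0.05 or by DESeq2 either, and their median log2 fold change was −0.17. Relative to DMSO the median was −0.42 with TSA and −0.01 with GSK-343, and turned to 0.29 and 0.46 with total count scaling. Under that scaling the medians of all tested genes were 0.65 and 0.42. Eya2, a paralogue of Eya1, rose relative to DMSO, at 19.3 and 4.11 CPM under TSA (adjusted p = 0.0175) and 8.22, 5.35 and 25.4 CPM under GSK-343 (adjusted p = 0.00905), against 0 and 0.782 CPM in DMSO. The DMSO libraries held only 0 and 3 counts of it, so no fold is given. Eya4, whose human counterpart is a deafness gene, fell with GSK-343, at 107, 65.0 and 34.9 CPM against 225 and 215 CPM in DMSO (log2 change −1.67, adjusted p = 0.00982). No gene of this list was called lower with total count scaling or under limma on TPM. Of 18 GATA, PROX and TBX relatives only 2 were expressed enough to be tested. Gata2, the close paralogue of Gata3, rose in both comparisons with DMSO, at 26.9 and 28.2 CPM under TSA and 11.0, 20.2 and 43.7 CPM under GSK-343 against 0.898 and 5.74 CPM in DMSO (log2 fold changes 3.06 and 2.93, adjusted p = 0.018 and 0.0126).

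Of 32 other otic and prosensory regulators, 22 were tested. With TSA relative to GSK-343, 1 fell (Sox21) and none rose, while 1 was higher and 5 were lower at an unadjusted p below 0.05 and DESeq2 called 0 higher. Relative to DMSO, 5 fell and 1 rose with TSA, and 7 fell and 5 rose with GSK-343. Jag1, the Notch ligand of the prosensory domain, stood at 311 and 391 CPM under TSA, 643, 501 and 434 CPM under GSK-343, and 1549 and 1009 CPM in DMSO. It fell with both inhibitors relative to DMSO (log2 fold changes −1.86 and −1.28, adjusted p = 0.00434 and 0.00837). Id1, an inhibitor of basic helix-loop-helix factors, rose with GSK-343, at 419.9, 244 and 279 CPM against 60.7 and 78.2 CPM in DMSO (log2 change 2.18, adjusted p = 0.00115). The median of the 22 relative to DMSO was −0.54 with TSA and −0.24 with GSK-343, and turned to 0.19 and 0.23 with total count scaling. The balance of calls turned too: with total count scaling 1 was lower and 4 were higher with TSA, and 1 was lower and 6 were higher with GSK-343, and under limma on TPM 0 were lower and 6 higher, and 1 lower and 7 higher. All tested genes shifted as well. Their medians were 0.65 with TSA and 0.42 with GSK-343 under total count scaling, and 0.67 and 0.24 under limma on TPM. With total count scaling the list medians stayed below those of all tested genes, so the turn is not read as particular to this list.

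Genes described elsewhere as depending on SOX2 were all measured, 10 of 10, and several of them are also supporting cell markers. With TSA relative to GSK-343, 3 fell and 1 rose, with a median log2 fold change of −0.80. Fabp7, a fatty acid binding protein, stood at 14.3 and 4.69 CPM under TSA, 64.6, 32.9 and 39.5 CPM under GSK-343, and 302 and 316 CPM in DMSO (log2 change −2.26 for TSA over GSK-343, adjusted p = 0.0183). Hes5, a Notch effector, stood at 263 and 246 CPM under TSA and 653, 765 and 549 CPM under GSK-343 (log2 change −1.37, adjusted p = 0.0221), and Sox21 was the other gene that fell. The gene that rose was Nes, an intermediate filament protein (log2 change 3.38 ± 0.95, adjusted p = 0.0445), named here after its value was seen. Its mean log2 CPM was below 3, the limit used for naming genes. Relative to DMSO, Nes fell with GSK-343 (−3.06, adjusted p = 0.023) and was not called with TSA (0.32, adjusted p = 0.831).

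Relative to DMSO, 5 of these 10 fell and 1 rose with TSA, and 5 fell and 3 rose with GSK-343. Under total count scaling the counts were 3 lower and 1 higher with TSA and 3 lower and 3 higher with GSK-343, and under limma on TPM 2 lower and 1 higher, and 1 lower and 3 higher. Cdkn1b, the cell cycle inhibitor p27Kip1, stood at 59.1 and 47.2 CPM under TSA and 77.1, 70.6 and 33.5 CPM under GSK-343 against 736 and 581 CPM in DMSO (log2 fold changes −3.63 and −3.45, adjusted p = 0.000299 and 7.82e-05). Atoh1, the hair cell determination factor, moved the other way, with 35.1, 38.7 and 39.3 CPM in GSK-343 against 5.59 and 6.18 CPM in DMSO libraries (log2 change 2.66, adjusted p = 0.00403). Summed over 21 hair cell markers, levels were 697 to 2293 CPM under TSA, 507 to 1366 CPM under GSK-343 and 434 to 480.5 CPM in DMSO. The part of hair cells in the sort in the Atoh1 values was not tested.

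Of 13 collagen, matrix and SOXD genes controlled by SOX9 in cartilage, 10 were tested. With TSA over GSK-343, 3 fell. None rose, at an unadjusted p below 0.05 or by DESeq2 either, and the median log2 fold change was −0.84. Col11a2 stood at 53.2 and 43.4 CPM under TSA and 143, 342 and 265 CPM under GSK-343 (log2 change −2.37, adjusted p = 0.0102), and Col2a1 at 1650 and 1349 CPM under TSA and 3511, 5750 and 4695 CPM under GSK-343 (log2 change −1.63, adjusted p = 0.0207). Col9a2 fell by 1.86 on the log2 scale. Relative to DMSO, 5 fell and none rose with TSA (0 higher also by DESeq2 and at an unadjusted p below 0.05), and 4 fell and 1 rose with GSK-343. Under limma on TPM those counts were 3 lower and 1 higher, and 1 lower and 4 higher. Collagens are made by mesenchyme as well, and the summed level of 11 mesenchyme markers was 113 to 271 CPM under TSA, 162 to 296 CPM under GSK-343 and 168 to 186 CPM in DMSO. Their part in these differences was not tested.

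The list of 26 supporting cell markers contains none of the 9 factors. Relative to GSK-343, 12 of the 26 fell and 1 rose with TSA, with a median log2 fold change of −1.09. Hey1, a Notch target repressor, stood at 192 and 124 CPM under TSA and 767, 671 and 635 CPM under GSK-343 (log2 change −2.13, adjusted p = 0.00795). Relative to DMSO, 13 fell with TSA, and with GSK-343 8 fell and 4 rose. With total count scaling the TSA counts were 9 lower and 3 higher, the GSK-343 counts were 4 lower and 7 higher, and the GSK-343 median of −0.36 became 0.10. Under that scaling the median of all tested genes for GSK-343 over DMSO was 0.42. Under limma on TPM the counts were 5 lower and 3 higher with TSA, and 2 lower and 8 higher with GSK-343. In the same comparison of TSA with GSK-343, 6 of 12 neuron markers tested rose, with summed levels of 16 markers of 788 to 804 CPM under TSA, 94.4 to 316 CPM under GSK-343 and 145 to 154 CPM in DMSO. The part of this other RNA in the lower levels of Six2, Sox10 and Gata3 was not tested. Markers of endothelium summed to 9.09 to 11.8, 2.83 to 7.4 and 34.4 to 35.0 CPM in TSA, GSK-343 and DMSO libraries, markers of immune cells to 3.67 to 4.69, 4.14 to 16.1 and 6.49 to 21.2 CPM, and markers of melanocytes to 40.5 to 43.1, 30.3 to 89.3 and 31.3 to 36.4 CPM. The melanocyte genes Mlana and Tyrp1 were at 0 in every library.

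**Figure D5:**
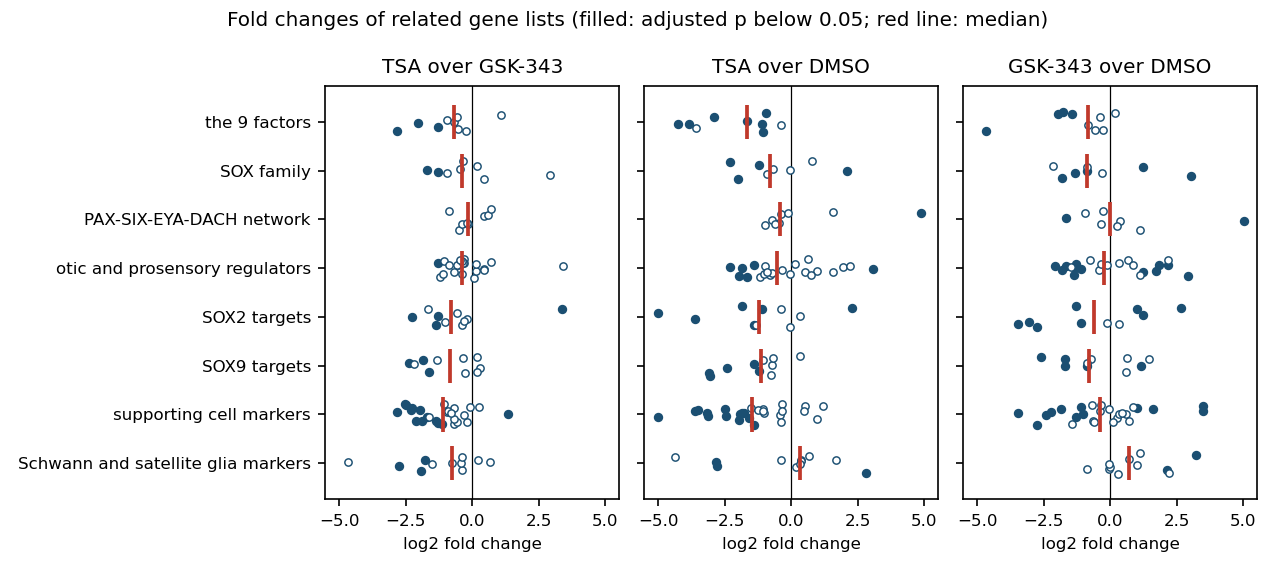
Log2 fold changes (horizontal axis) of the tested genes in each list, with filled points at an adjusted p below 0.05 and a red line at the list's median, for TSA over GSK-343, TSA over DMSO and GSK-343 over DMSO. The medians of the 9 factors are −0.67, −1.66 and −0.84; the points are scattered vertically for legibility.

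Neighbouring transcripts were checked at each locus on GRCm38 with the GENCODE M21 annotation. Sox2 (chr3:34650405-34652461, plus strand) lies within the span of the long non-coding RNA Sox2ot and shares no exonic base with it. Sox2ot stood at 21.6 and 9.09 CPM under TSA, 27.5, 40.9 and 11.8 CPM under GSK-343, and 92.5 and 94.3 CPM in DMSO. It fell with TSA and with GSK-343 relative to DMSO (log2 fold changes −2.60 and −1.81, adjusted p = 0.00786 and 0.0127), and its difference between the inhibitors was −0.80 (adjusted p = 0.353).

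Gata3 (chr2:9857078-9890034, minus strand) shares 155 exonic bases with the antisense gene Gm13256 and 77 with 9230102O04Rik on its own strand. These genes held 0 to 3 and 26.0 to 63.2 expected counts in the treated libraries, and 24.8 to 31.7 and 135 to 139 in DMSO. Prox1 (chr1:190118035-190170714, minus strand) shares 133 exonic bases with the antisense gene Prox1os, which had expected counts of 1 and 1 under TSA, 8, 19 and 28 under GSK-343, and 0 and 15.3 in DMSO. All are small against the counts of Gata3 and Prox1. Whether the libraries keep strand is not given in the sources used here, so reads in the shared bases cannot be told apart.

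The remaining members shared no exonic base with another annotated gene. They lie at chr11:112782224-112787760 on the plus strand (Sox9), chr15:79154908-79165240 on the minus strand (Sox10), chr17:85684277-85688274 on the minus strand (Six2), chr1:14168954-14310235 on the minus strand (Eya1), chr19:44756045-44837871 on the plus strand (Pax2) and chr11:85832551-85841948 on the plus strand (Tbx2). Beside Sox9, on the opposite strand, the non-coding gene BC006965 stood at 295 and 175 CPM under TSA, 345, 589 and 429 CPM under GSK-343, and 824 and 789 CPM in DMSO (log2 change −1.78 for TSA over DMSO, adjusted p = 0.00658).

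Genes whose pattern over the 7 libraries was most like each member were found by the root mean square difference of log2(CPM + 0.5), each gene centred on its own mean, among 5291 well expressed genes. The closest were Maged2 to Tbx2 (0.0873), Capn2 to Sox2 (0.1), Zfyve9 to Eya1 (0.106), Arhgap39 to Gata3 (0.113), Anp32a to Sox9 (0.157), Clip3 to Prox1 (0.191), Mansc4 to Sox10 (0.258) and Atp1b2 to Six2 (0.361). Sall1, a zinc finger gene, was the second closest to Gata3 (0.144), and Atn1 was second closest to both Sox10 (0.275) and Six2 (0.509). Pax2 had no near neighbour; the closest, Cybrd1, differed by 1.1. Among the members themselves, Sox2 and Sox9 were most alike (0.3), followed by Sox2 and Eya1 (0.361), and Sox10 and Six2 differed by 0.53, which was less than either differed from any other member. These differences describe 7 libraries that fall into 3 groups and that differ in read layout. They are not scaled by how much a gene varies, so genes that vary little lie close for that reason too. The root mean square about the gene's own mean was 0.373 for Sox2, 0.477 for Sox9, 0.516 for Eya1, 1.63 for Sox10 and 1.75 for Six2. The differences of Sox2 from Sox9 and Eya1 are thus near the whole variation of Sox2 and are not read as a shared pattern.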

How the data were processed

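RNA from sorted mouse cochlear supporting cells was sequenced, and per the submitters' processing notes STAR, RSEM and DESeq2 were the tools and mm10 the build. The deposited expected counts are RSEM output per gene, unscaled between libraries, per the file headers. The deposited TPM values are scaled by effective length and library, and the deposited FPKM values were not analysed. The deposited lengths and effective lengths are in bases, per the file headers. The annotation release is not given in the sources used here. Of 48709 identifiers, 48349 matched a symbol after the version suffix was dropped.

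Expected counts were rounded and tested with edgeR 4.0.16 in R 4.3.3. Genes passing filterByExpr (14907) were fitted in 1 model of 7 libraries with TMM factors of 1.32 and 1.16 for TSA, 1.02 to 1.08 for GSK-343, and 0.754 and 0.76 for DMSO. The model had 4 residual degrees of freedom and a biological coefficient of variation of 0.43. P-values of quasi-likelihood F tests were adjusted over all 14907 genes (Benjamini-Hochberg, threshold 0.05). An SE was obtained by dividing the size of the log2 fold change by the root of F. Levels between genes are in TPM. In normalised CPM, 3 counts correspond to 0.674 to 0.88, which covers counting error only. The script was tested on simulated counts.

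Alternatives were DESeq2 1.42.0 (its size factors and its Wald test), total count scaling, other filters, protein-coding nuclear genes alone, only the 2 groups compared, the replicate number as a block, removal of a GC and length trend, limma 3.58.1 on log2 TPM with a pseudocount of 1 or 0.1, each library left out, a threshold of 0.01, and a robust prior, which was added after the data were seen. Replicates were checked for duplicates, and their chi-square per degree of freedom was 15 to 44.2. Members and gene lists were chosen with earlier results of these data known. All members are named, and from each list up to 4 genes per comparison, by smallest adjusted p among genes whose mean log2 CPM was 3 or more (up to 2 for markers of other cell types). The 2 most alike genes per member were taken from those whose mean log2 CPM was 5 or more, and exceptions are stated. Lists of markers of hair cells, neurons, Schwann cells and satellite glia, mesenchyme, endothelium, melanocytes and immune cells checked the sort. A list of target genes was left out and is not reported here. With 2 or 3 libraries a group, permutation tests could not reach the threshold.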

Additional observations from a re-analysis of the deposited data

How the results depend on the processing

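Of the 14 called fold changes of members, read 306 times in all under the alternatives, 300 kept their direction and 6 reversed. The 300 include the values under the stricter threshold and the robust prior. Those settings leave every fold change as it was, so they could not reverse a direction and are no check of it. The 6 were Sox2 (0.28) and Sox9 (0.0421 or 0.0423) for TSA over DMSO under each of 3 limma settings on TPM. Among members that were not called, Eya1 for TSA over GSK-343 became 0.0263 with total count scaling, −0.65 to 0.0618 with a library left out (0.0618 without TSA replicate 2) and 0.10 under limma. Pax2 ranged over −4.45 (without TSA replicate 1) to 2.32. For TSA over DMSO, Tbx2 became 0.37 with total count scaling, −1.19 to 0.19 with a library left out (0.19 without TSA replicate 2), and 0.60, 0.62 and 0.60 under limma. For GSK-343 over DMSO, Sox2 became 0.20 and Gata3 0.10 with total count scaling, Sox9 0.0737 with the replicate block and the GC and length trend removed and 0.0002 with the trend alone removed, and Sox2 became 0.59 and Sox9 0.22 under limma. With total count scaling the median of all tested genes for GSK-343 over DMSO was 0.42. The cause of these changes of sign was not tested.

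For TSA over GSK-343, 3 members were called. The count was 1 with total count scaling and 1 with only the 2 groups compared (Six2 in both), 1 with the replicate block and trend removal (Prox1, −1.42, adjusted p = 0.0254, with all 3 lost), 0 under the limma settings and 0 at a threshold of 0.01, and 0 to 3 with a library left out. For TSA over DMSO the 7 calls became 3 with total count scaling, 4, 4 and 2 under limma, 4 at 0.01, and 3 to 7 with a library left out. For GSK-343 over DMSO the 4 calls became 2 with total count scaling, 0 under limma, 1 at 0.01, and 2 to 5 with a library left out.

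Over all genes, 1425 were called for TSA over GSK-343, 841 with the replicate block, 523 with the block and trend removal, 619 under limma on log2(TPM + 0.1), 5 under limma with no filter, 117 at 0.01, and 159 to 1878 with a library left out. For TSA over DMSO, 4252 became 7530, 6876 and 7617 under limma, 1711 at 0.01, and 2058 to 5124 with a library left out. For GSK-343 over DMSO, 5809 became 3682 with the block and trend removal, 3434 at 0.01, and 4668 to 6405 with a library left out. The percentage of calls that were higher was 47.7%, 45.0% and 45.4% with TMM, 71.5%, 74.5% and 63.1% with total count scaling, and 82.8%, 66.9% and 56.6% under limma on log2(TPM + 1), whose medians over all genes were 0.24, 0.67 and 0.24.

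Same-numbered libraries did not deviate together (correlations of deviations −0.0936 to 0.0395). In a group of 2 libraries the deviations mirror each other, so this check rests on few contrasts. It does not settle whether the numbers pair libraries, and the labels do not state it. With the replicate block, the 3 members called for TSA over GSK-343 and the 4 for GSK-343 over DMSO were the same genes, while for TSA over DMSO Sox2 was lost (adjusted p = 0.0912) and Pax2 was gained (adjusted p = 0.0328). Leaving out 1 of 2 libraries assumes that the lone library varies like the other groups. Pax2 had no value with the filter of 50 counts. With 2 or 3 libraries a group, and few reads of Pax2, small differences could not be told from the spread.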
